A study of Mus musculus with 10 samples.

Results

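The transcripts of 40 genes for glucose uptake, glycolysis, lactate production and the pentose phosphate pathway were followed in O9-1 cells, a tetraploid mouse line derived from the cranial neural crest, with and without Kat5 or Ep400. Members were taken by gene symbol from a list of the pathway genes, and all 40 were found among the 43346 genes of the count table. The 10 RNA-seq libraries came from 4 biologically independent wildtype samples and from 3 Kat5 ko and 3 Ep400 ko clones that had been made in the same line by CRISPR/Cas9 genome editing. Each clone grew from a single sorted cell, and all cells were kept in medium conditioned by fibroblast feeders. The guide for *Kat5* cut in front of the acetyltransferase domain, and all Kat5 ko clones carried frameshifts in every allele. The guide for *Ep400* cut at the ATP binding site. Clone Ep400/1 carried frameshifts in every *Ep400* allele, clone Ep400/3 a frameshift in most alleles and an in-frame deletion in the remaining one, and clone Ep400/2 a frameshift in one allele and in-frame deletions in the others. Each knockout group was 1 library per clone. The p-values against wildtype rest on a spread estimated over the clones and the 4 wildtype samples together. No single-cell cloning of the wildtype samples is described by the study. Loss of the gene therefore cannot be told apart from editing, sorting and growth from 1 cell.

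Glycolysis splits glucose into pyruvate and yields ATP without oxygen. Lactate dehydrogenase turns pyruvate into lactate and regenerates NAD+, and pyruvate dehydrogenase kinases hold pyruvate back from the citric acid cycle. The pentose phosphate pathway branches off at glucose-6-phosphate and supplies NADPH and ribose for nucleotides. Many steps have several isozymes, encoded by separate genes that differ in tissue distribution and regulation. Kat5 is the histone acetyltransferase and Ep400 the ATP-dependent remodeler of the Tip60/Ep400 complex, and the study examined what each of them does in cranial neural crest cells.

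Levels are given as CPM, which are counts scaled to a common library size after TMM normalization over all libraries, and always in the order of the replicate or clone numbers. Between 30968945 and 48301792 reads per library were counted on genes. *Kat5* had 48.8 to 57.5 CPM in wildtype libraries and 22.9, 16.4 and 23.2 CPM in the Kat5 ko clones. *Ep400* had 157 to 165 CPM in wildtype libraries and 54.7, 61.4 and 59.7 CPM in the Ep400 ko clones, so that both labels matched their targets. Of 11 markers of the cranial neural crest, 10 exceeded 1 CPM on average in wildtype cells, while *Sox10*, a gene of early neural crest and glia, was listed at 0 in all libraries. Clone Kat5/1 stood apart by its smooth muscle markers, whose summed level was 758 CPM compared with 19 to 95.8 CPM in the other 9 libraries. Leaving this clone out raised the number of genes called between Kat5 ko and wildtype from 67 of 13434 to 2651 of 13703 tested. Fold changes of genes between Kat5 ko and wildtype are therefore given with and without clone Kat5/1, and the part of the smooth muscle markers in them was not tested.

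**Figure D1:**
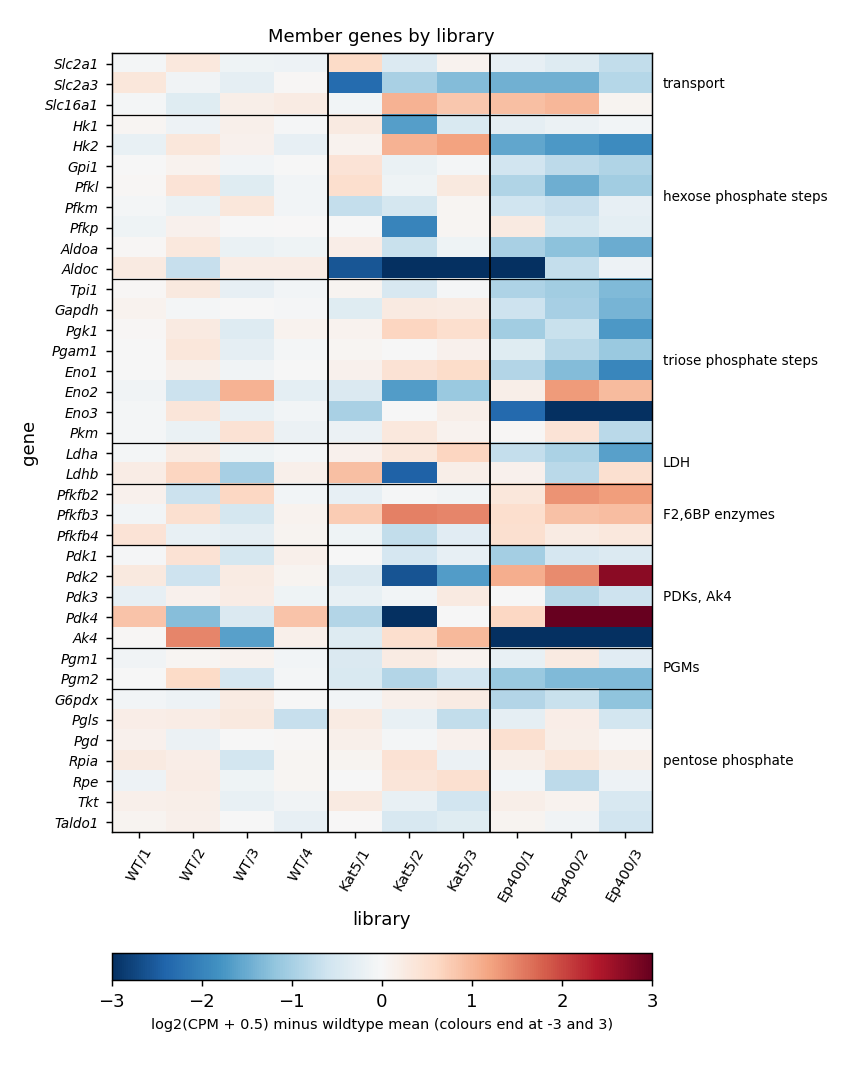
Level of the 38 members with enough counts to be tested, in each library (columns), as the log2 of CPM + 0.5 minus the mean of the 4 wildtype libraries, with blue for lower and red for higher values. Genes (rows) are ordered by role. Most rows for glycolytic steps are blue in all 3 Ep400 ko clones, and the rows of the pentose phosphate pathway below *G6pdx* stay pale.

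In Ep400 ko clones, transcripts for enzymes of most glycolytic steps were lower than in wildtype cells, though not those of every isozyme. Among the 38 members that could be tested, 14 fell and 2 rose when edgeR's quasi-likelihood test was read at an adjusted p of 0.05. Of all 13836 genes in this comparison, 13.9% were called in either direction, 5.76% as lower and 8.09% as higher. Members had a median log2-fold change of −0.46, compared with 0.04 for all genes. DESeq2 called 19 members (16 lower and 3 higher) and 22.6% of all genes. The 14 genes that fell were *Slc2a3*, *Hk2*, *Gpi1*, *Pfkl*, *Aldoa*, *Tpi1*, *Gapdh*, *Pgk1*, *Eno1*, *Eno3*, *Ldha*, *Ak4*, *Pgm2* and *G6pdx*. Among the genes not called by edgeR were *Hk1*, *Pfkm*, *Pgam1* and *Pkm*. Both genes that rose, *Pdk2* and *Pdk4*, encode pyruvate dehydrogenase kinases.

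DEGs had, besides the adjusted p, an absolute log2-fold change of 1 or more and over 100 normalized counts on average in 1 of the groups. Of these 16 members, 12 met this rule, 10 as lower and 2 as higher. Among all genes, 6.47% were DEGs, 2.31% as lower and 4.16% as higher. In 17 of the 38 members, the 3 Ep400 ko clones all lay below the 4 wildtype libraries, and in 2 members all lay above. Over all genes tested, these patterns occurred in 14.1% and 16.1%. Members took between 1.5% and 1.65% of the counts on genes in wildtype libraries and 1.19%, 1.17% and 0.813% in the Ep400 ko clones. In bulk RNA, a smaller number of cells with a transcript and less transcript per cell cannot be told apart. Mitochondrial transcripts took 3.24% of the counts in clone Ep400/3, which had the lowest share of the members, compared with 0.893% to 2.43% in the other libraries, and their part in the result was not tested.

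In Kat5 ko clones, only *Aldoc* passed the test among the 38 members, as lower, while 0.499% of all 13434 genes tested were called. It was also a DEG, as were 0.387% of all genes (0.298% lower and 0.0893% higher). Members had a median log2-fold change of −0.04 (−0.17 without clone Kat5/1), compared with 0.00 for all genes. In 2 members (*Slc2a3* and *Aldoc*), all Kat5 ko clones lay below wildtype and in 1 (*Pfkfb3*) above, which held for 10.2% and 9.67% of all genes. Members took 1.51%, 1.64% and 1.71% of the counts. Without adjustment, 2993 genes and 9 members had a p of at most 0.05. DESeq2 called 11.1% of the genes and 4 members, with *Aldoc* and *Slc2a3* lower and *Hk2* and *Pfkfb3* higher. Without clone Kat5/1, 7 members were called in edgeR, among 19.3% of all genes tested. *Hk2*, *Pfkfb3*, *Eno1* and *Slc16a1* were then higher and *Aldoc*, *Slc2a3* and *Pdk2* lower. Both in DESeq2 and without clone Kat5/1, the called share of the 38 members was no higher than that of all genes.

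**Figure D2:**
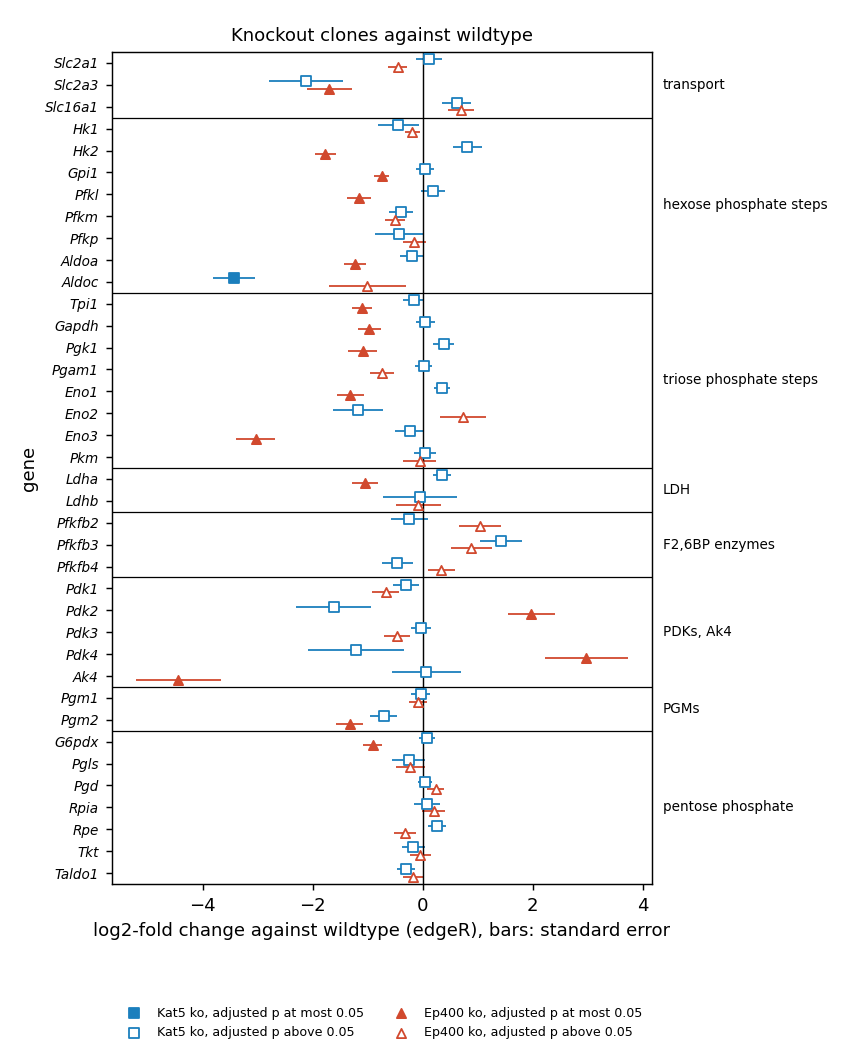
Log2-fold change against wildtype (horizontal axis) of the 38 members tested, ordered by role, for Kat5 ko clones (squares) and Ep400 ko clones (triangles), with bars of 1 standard error. Filled symbols mark members called by edgeR (adjusted p up to 0.05), which 1 member reached for Kat5 and 16 for Ep400.

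Promoter sequences of 6 members are shown because hypoxia-inducible factors and Myc are well-known regulators of glycolytic genes through short motifs. They include 4 of the genes that fell in Ep400 ko clones, and both genes that rose. Each window comprises 250 bases before and 50 bases from the RefSeq transcription start on, in GRCm38.p6, written 5′ to 3′ on the strand of the gene. Capitals mark ACGTG and GCGTG, the core motifs of hypoxia response elements, on either strand (CACGT and CACGC on the other). The E-box CACGTG contains ACGTG on both strands and appears in capitals as well.
*Hk2*, chr6:82774405-82774704, minus strand: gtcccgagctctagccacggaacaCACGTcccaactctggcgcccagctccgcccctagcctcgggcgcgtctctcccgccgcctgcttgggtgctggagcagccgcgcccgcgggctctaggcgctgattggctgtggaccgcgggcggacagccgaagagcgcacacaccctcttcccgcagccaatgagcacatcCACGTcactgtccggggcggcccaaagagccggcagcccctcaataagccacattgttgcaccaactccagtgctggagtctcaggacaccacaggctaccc
*Eno3*, chr11:70656926-70657225, plus strand: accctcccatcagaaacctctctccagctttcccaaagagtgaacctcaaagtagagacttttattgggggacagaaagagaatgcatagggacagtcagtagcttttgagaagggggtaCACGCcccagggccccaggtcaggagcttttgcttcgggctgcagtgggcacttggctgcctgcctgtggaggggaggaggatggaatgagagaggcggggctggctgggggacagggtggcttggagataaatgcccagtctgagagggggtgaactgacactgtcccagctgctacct
*Pgk1*, chrX:106186850-106187149, plus strand: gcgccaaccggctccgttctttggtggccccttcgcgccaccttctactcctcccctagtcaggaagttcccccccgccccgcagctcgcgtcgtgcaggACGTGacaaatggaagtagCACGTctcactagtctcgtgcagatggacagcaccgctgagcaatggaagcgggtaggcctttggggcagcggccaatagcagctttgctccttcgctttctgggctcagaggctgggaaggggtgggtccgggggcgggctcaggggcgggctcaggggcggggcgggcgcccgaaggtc
*Ldha*, chr7:46845554-46845853, plus strand: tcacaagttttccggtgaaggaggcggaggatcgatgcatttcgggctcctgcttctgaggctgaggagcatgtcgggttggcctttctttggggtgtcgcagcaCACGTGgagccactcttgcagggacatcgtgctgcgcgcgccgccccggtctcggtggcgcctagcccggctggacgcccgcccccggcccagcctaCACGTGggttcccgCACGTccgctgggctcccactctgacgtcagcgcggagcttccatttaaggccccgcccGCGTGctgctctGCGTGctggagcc
*Pdk2*, chr11:95041322-95041621, minus strand: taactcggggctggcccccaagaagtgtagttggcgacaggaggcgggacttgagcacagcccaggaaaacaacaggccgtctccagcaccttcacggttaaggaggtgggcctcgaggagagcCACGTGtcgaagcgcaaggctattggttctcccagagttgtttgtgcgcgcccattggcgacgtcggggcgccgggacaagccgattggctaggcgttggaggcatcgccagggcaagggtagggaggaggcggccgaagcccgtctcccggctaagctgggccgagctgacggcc
*Pdk4*, chr6:5496229-5496528, minus strand: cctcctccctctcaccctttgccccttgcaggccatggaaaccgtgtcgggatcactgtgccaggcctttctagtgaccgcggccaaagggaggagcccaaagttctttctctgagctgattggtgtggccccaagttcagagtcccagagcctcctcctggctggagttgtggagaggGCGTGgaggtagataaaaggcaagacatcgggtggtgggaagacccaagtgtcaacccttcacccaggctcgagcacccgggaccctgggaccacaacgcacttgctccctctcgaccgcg

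The *Ldha* window held 2 E-boxes, 1 further CACGT and 2 GCGTG, and the *Pdk2* window 1 E-box. *Hk2* and *Pgk1* each had 2 matches of ACGTG or its complement, and *Eno3* and *Pdk4* each had 1 match of GCGTG or its complement. Windows were found for 39 of the 40 members, without *Slc2a3*. At least 1 of the core motifs was present in a window of 11 of the 13 matched genes that fell in Ep400 ko clones, of both genes that rose and of 20 of the 22 genes that were not called. The share over all 27025 genes with a window was 46.7%. *Gpi1* and *Tpi1*, which also fell in Ep400 ko clones, had neither core motif and are not among the windows shown. Members had more windows per gene, 1.51 on average compared with 1.22 over all genes, which raises such shares. The 27025 genes were also not limited to those expressed in these cells, so a difference from the members was not tested. The E-box occurred in 2 of 13, 1 of 2 and 4 of 22 genes, and in 8.09% of all genes. The *Ldha* window belongs to a RefSeq start that lies 4329 bases from the 5′ end of the gene in GENCODE. A match describes the sequence only, and binding was not measured.

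Glucose enters cells through facilitative transporters, and lactate leaves them through monocarboxylate transporters. *Slc2a1*, the gene of the widely expressed glucose transporter GLUT1, had 103, 133, 97.7 and 96 CPM in the wildtype libraries, 159.6, 80.2 and 114 CPM in the Kat5 ko clones and 89.5, 81.3 and 64.1 CPM in the Ep400 ko clones. All Ep400 ko clones lay below the wildtype range, yet the difference did not pass the test (log2-fold change −0.46 ± 0.17 SE, edgeR adjusted p = 0.111), and Kat5 ko clones overlapped with wildtype (log2-fold change 0.11 ± 0.24 SE, edgeR adjusted p = 0.824 with all clones, and −0.18, edgeR adjusted p = 0.542 without Kat5/1). *Slc2a3* (ENSMUSG00000003153, chr6:122727809-122801640), the gene of the high-affinity transporter GLUT3, was hardly expressed, at 3.13, 2.2, 1.88 and 2.45 CPM in the wildtype libraries, 0.0827, 0.956 and 0.661 CPM in the Kat5 ko clones and 0.563, 0.562 and 1.1 CPM in the Ep400 ko clones. Every knockout clone had less *Slc2a3* than every wildtype library. The fall passed the test for Ep400 (log2-fold change −1.70 ± 0.40 SE, edgeR adjusted p = 0.0279). For Kat5, edgeR called the fall only without clone Kat5/1 (log2-fold change −2.13 ± 0.68 SE, edgeR adjusted p = 0.129 with all clones, and −1.61, edgeR adjusted p = 0.0324 without Kat5/1). DESeq2 called it for Kat5 with all clones (−2.12, DESeq2 adjusted p = 0.0218). The call for Ep400 was lost without WT/1, WT/2, WT/4, Ep400/1 or Ep400/2 (log2-fold changes −1.74 to −1.53, edgeR adjusted p 0.0608 to 0.087), and also in the fit of all 10 libraries (edgeR adjusted p = 0.117).

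*Slc16a1*, which encodes the lactate and pyruvate carrier MCT1, had 126, 103, 149 and 156 CPM in the wildtype libraries, 125, 271 and 231 CPM in the Kat5 ko clones and 246, 264 and 139.5 CPM in the Ep400 ko clones. In each knockout, 2 clones exceeded all wildtype libraries and 1 clone lay within their range, and neither difference passed the test (log2-fold change 0.61 ± 0.26 SE, edgeR adjusted p = 0.211 for Kat5, and log2-fold change 0.69 ± 0.24 SE, edgeR adjusted p = 0.0878 for Ep400). It did so without the clone inside the wildtype range (log2-fold change 0.88, edgeR adjusted p = 0.0191 without Kat5/1, and 0.93, edgeR adjusted p = 0.02 without Ep400/3). *Slc16a3*, the gene of the lactate exporter MCT4, did not exceed 0.0663 CPM in any library and was not tested.

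Hexokinase commits glucose to the cell by phosphorylation. *Hk1*, the gene of the constitutive isozyme, had 166, 144, 177 and 156 CPM in the wildtype libraries, 192, 50.9 and 117 CPM in the Kat5 ko clones and 132, 141 and 150.1 CPM in the Ep400 ko clones. The Ep400 ko clones lay within or just below the wildtype range (log2-fold change −0.19 ± 0.13 SE, edgeR adjusted p = 0.337), and clone Kat5/2 was far lower than all other libraries (log2-fold change −0.45 ± 0.37 SE, edgeR adjusted p = 0.512 with all clones, and −0.97, edgeR adjusted p = 0.0606 without Kat5/1). *Hk2* (ENSMUSG00000000628, chr6:82725025-82774454), the gene of the inducible isozyme, had 44.6, 66.1, 56.4 and 43.8 CPM in the wildtype libraries, 55.6, 108 and 120.1 CPM in the Kat5 ko clones and 17.3, 15.3 and 13.8 CPM in the Ep400 ko clones. The Ep400 ko clones kept 29.3% of the wildtype mean and lay below all other libraries (log2-fold change −1.77 ± 0.20 SE, edgeR adjusted p = 0.0026). Clones Kat5/2 and Kat5/3, by contrast, lay above the wildtype range (log2-fold change 0.81 ± 0.27 SE, edgeR adjusted p = 0.139 with all clones, and 1.08, edgeR adjusted p = 0.0111 without clone Kat5/1).

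*Gpi1* (ENSMUSG00000036427, chr7:34201330-34230336), which encodes the isomerase between glucose- and fructose-6-phosphate, had 328, 352, 308 and 327 CPM in the wildtype libraries, 433, 287 and 318 CPM in the Kat5 ko clones and 222, 189 and 176 CPM in the Ep400 ko clones. It fell in Ep400 ko clones to 59.5% of the wildtype mean (log2-fold change −0.75 ± 0.14 SE, edgeR adjusted p = 0.0127), whereas Kat5 ko clones lay on both sides of the wildtype range (log2-fold change 0.05 ± 0.17 SE, edgeR adjusted p = 0.897 with all clones, and −0.15, edgeR adjusted p = 0.359 without Kat5/1). This was the smallest of the called decreases.

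Phosphofructokinase catalyzes the committed step of glycolysis. *Pfkm*, the muscle type gene and the one with the highest level per length in wildtype cells, had 104, 95.4, 138 and 102 CPM in the wildtype libraries, 66.6, 74.9 and 114 CPM in the Kat5 ko clones and 72.2, 67.6 and 92.1 CPM in the Ep400 ko clones. Ep400 ko clones lay below the wildtype libraries without passing the test in edgeR with all libraries (log2-fold change −0.51 ± 0.18 SE, edgeR adjusted p = 0.0891). It was called without clone Ep400/3 (−0.66, edgeR adjusted p = 0.0492) and by DESeq2 (−0.53, DESeq2 adjusted p = 0.0429). *Pfkl* (ENSMUSG00000020277, chr10:77986947-78010083), the liver type gene, had 154, 199.7, 115 and 140.0 CPM in the wildtype libraries, 212, 136 and 183 CPM in the Kat5 ko clones and 79.3, 53.3 and 71.9 CPM in the Ep400 ko clones and fell in Ep400 ko clones (log2-fold change −1.16 ± 0.22 SE, edgeR adjusted p = 0.0134). Neither was called for Kat5, with log2-fold changes of −0.40 with and −0.25 without Kat5/1 for *Pfkm* and 0.19 with and 0.04 without Kat5/1 for *Pfkl*. *Pfkp*, the platelet type gene, ranged from 4.78 to 24.6 CPM, with the lowest value in clone Kat5/2, and was not called for Kat5 (−0.43, edgeR adjusted p = 0.6 with all clones, and −0.67, edgeR adjusted p = 0.365 without Kat5/1) or Ep400 (−0.15, edgeR adjusted p = 0.661).

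Aldolase cleaves fructose-1,6-bisphosphate into triose phosphates. *Aldoa* (ENSMUSG00000030695, chr7:126795234-126800751), the main aldolase gene in these cells, had 1133, 1381, 969 and 1011 CPM in the wildtype libraries, 1277, 698 and 1021 CPM in the Kat5 ko clones and 566, 477 and 396 CPM in the Ep400 ko clones. All Ep400 ko clones lay below all other libraries (log2-fold change −1.23 ± 0.20 SE, edgeR adjusted p = 0.00777), and the Kat5 ko clones were not called (log2-fold change −0.20 ± 0.23 SE, edgeR adjusted p = 0.638 with all clones, and −0.42, edgeR adjusted p = 0.178 without Kat5/1). *Aldoc* (ENSMUSG00000017390, chr11:78322968-78327781), the gene of the brain type isozyme, had 16, 7.92, 15.5 and 15.4 CPM in the wildtype libraries, 1.82, 0.989 and 1.06 CPM in the Kat5 ko clones and 0.797, 7.87 and 11.7 CPM in the Ep400 ko clones. Kat5 ko clones retained 9.41% of the wildtype mean and did not overlap with wildtype (log2-fold change −3.43 ± 0.39 SE, edgeR adjusted p = 0.0208 with all clones, and −3.77, edgeR adjusted p = 0.00375 without Kat5/1). This single call for Kat5 was lost without WT/1, WT/4 or Kat5/3 (log2-fold changes −3.35 to −3.30, edgeR adjusted p 0.068 to 0.103), and also when all 10 libraries were fitted together. Among Ep400 ko clones, Ep400/1 had the lowest level of all libraries, while Ep400/2 lay just below and Ep400/3 within the wildtype range (log2-fold change −1.01 ± 0.70 SE, edgeR adjusted p = 0.345).

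**Figure D3:**
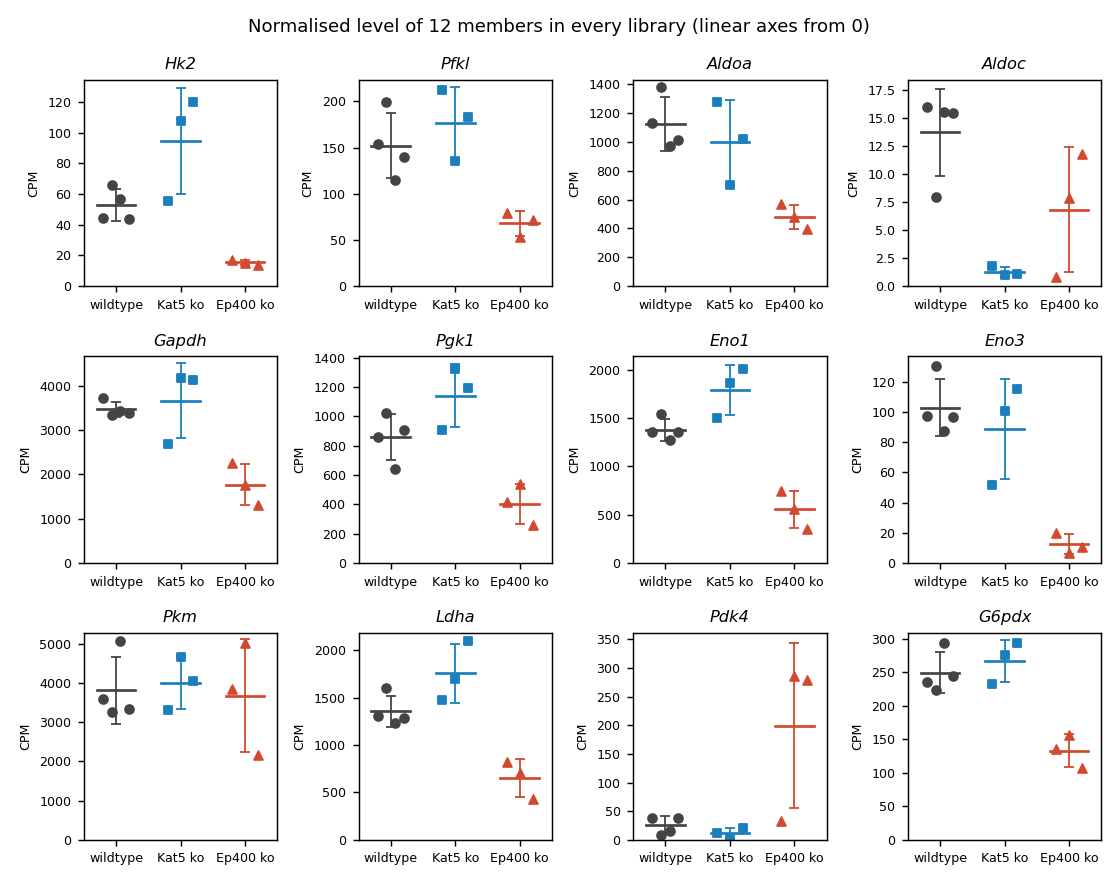
Normalised level in CPM (vertical axes, linear and starting at 0) of 12 members in each library of the 3 groups, with the group mean as a horizontal line and bars of 1 SD (n = 4 wildtype, 3 Kat5 ko and 3 Ep400 ko). For *Hk2*, *Aldoa*, *Gapdh*, *Pgk1*, *Eno1*, *Eno3*, *Ldha*, *Pfkl* and *G6pdx* the Ep400 ko clones lie below all other libraries, for *Pkm* the groups overlap, and for *Aldoc* the Kat5 ko clones lie below wildtype.

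Below aldolase, each step handles triose phosphates, and the ATP-yielding reactions of the pathway take place here. *Tpi1* (ENSMUSG00000023456, chr6:124810586-124814296), the triose phosphate isomerase gene, had 868, 1037, 721 and 811 CPM in the wildtype libraries, 902, 611 and 829 CPM in the Kat5 ko clones and 450.4, 416 and 338 CPM in the Ep400 ko clones. It fell in Ep400 ko clones to 46.7% of the wildtype mean (log2-fold change −1.10 ± 0.18 SE, edgeR adjusted p = 0.00887). *Gapdh* (ENSMUSG00000057666, chr6:125161715-125166467), whose product forms the first energy-rich intermediate and which is often used as a reference gene, had 3727, 3341, 3426 and 3399 CPM in the wildtype libraries, 2697, 4178 and 4128 CPM in the Kat5 ko clones and 2248, 1753 and 1313 CPM in the Ep400 ko clones. Each Ep400 ko clone had less *Gapdh* than any wildtype library or Kat5 ko clone, with a mean of 51% of wildtype (log2-fold change −0.97 ± 0.21 SE, edgeR adjusted p = 0.0204). The call was lost without WT/1, WT/4 or Ep400/2 (log2-fold changes −0.98 to −0.94, edgeR adjusted p 0.0514 to 0.0681). For Kat5, the log2-fold changes were −0.17 with and −0.29 without Kat5/1 for *Tpi1* and 0.05 with and 0.23 without Kat5/1 for *Gapdh*, and none of them was called.

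*Pgk1* (ENSMUSG00000062070, chrX:106187100-106203699), the gene of the first ATP-yielding kinase, had 862, 1020.1, 642 and 907 CPM in the wildtype libraries, 904, 1323 and 1190.0 CPM in the Kat5 ko clones and 413, 535 and 257 CPM in the Ep400 ko clones. Ep400 ko clones were below all others (log2-fold change −1.09 ± 0.27 SE, edgeR adjusted p = 0.0314), while the Kat5 ko clones lay within or above the wildtype range (log2-fold change 0.38 ± 0.19 SE, edgeR adjusted p = 0.285 with all clones, and 0.52, edgeR adjusted p = 0.0816 without Kat5/1). The decrease for Ep400 was not called without WT/1, WT/2, WT/4 or Ep400/1 (log2-fold changes −1.12 to −1.002, edgeR adjusted p 0.0592 to 0.0807). *Pgam1*, the phosphoglycerate mutase gene, had 261, 331, 217 and 253 CPM in the wildtype libraries, 275, 259 and 288 CPM in the Kat5 ko clones and 205, 147 and 122 CPM in the Ep400 ko clones. It was below the wildtype range in all Ep400 ko clones without being called (log2-fold change −0.75 ± 0.22 SE, edgeR adjusted p = 0.0543). It was called in 5 of 14 other fits, namely without clone Ep400/1 (−0.98, edgeR adjusted p = 0.0258), in DESeq2, without a filter, with all libraries in 1 fit and with chromosome offsets (−1.01 to −0.75, adjusted p 0.0109 to 0.0461). *Pgam2*, the muscle type gene, did not exceed 0.133 CPM and was not tested.

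Enolase forms phosphoenolpyruvate. *Eno1* (ENSMUSG00000063524, chr4:150236721-150248879), the ubiquitous enolase gene, had 1356, 1538, 1270.5 and 1358 CPM in the wildtype libraries, 1502, 1867 and 2009.7 CPM in the Kat5 ko clones and 746, 561 and 357 CPM in the Ep400 ko clones and dropped to 40.2% of the wildtype mean in Ep400 ko clones (log2-fold change −1.32 ± 0.25 SE, edgeR adjusted p = 0.0131). In Kat5 ko clones, 2 of 3 lay above the wildtype range (log2-fold change 0.34 ± 0.14 SE, edgeR adjusted p = 0.204 with all clones, and 0.46, edgeR adjusted p = 0.0349 without Kat5/1). *Eno3* (ENSMUSG00000060600, chr11:70657202-70662513), the gene of the muscle type enolase, had 97.3, 130.5, 87 and 96.4 CPM in the wildtype libraries, 51.6, 100.3 and 115 CPM in the Kat5 ko clones and 19.7, 6.87 and 10.9 CPM in the Ep400 ko clones. Its decrease to 12.1% of the wildtype mean was the strongest among the glycolytic enzymes in Ep400 ko clones (log2-fold change −3.04 ± 0.36 SE, edgeR adjusted p = 0.00301), and it was not called for Kat5 (−0.24 with and 0.03 without Kat5/1). *Eno2* (ENSMUSG00000004267, chr6:124760053-124769673), the neuronal type gene, had 31.3, 21.2, 69.1 and 27.3 CPM in the wildtype libraries, 24.9, 10.1 and 15.3 CPM in the Kat5 ko clones and 37.7, 82.5 and 65.4 CPM in the Ep400 ko clones. It was not called against wildtype for Ep400 (log2-fold change 0.73 ± 0.42 SE, edgeR adjusted p = 0.257) or Kat5 (log2-fold change −1.18 ± 0.46 SE, edgeR adjusted p = 0.185 with all clones, and −1.59, edgeR adjusted p = 0.063 without Kat5/1), with library WT/3 far above the other wildtype libraries. Without WT/3, it was called as higher for Ep400 (1.21, edgeR adjusted p = 0.042). All Ep400 ko clones had more *Eno2* than all Kat5 ko clones (log2-fold change 1.86 ± 0.41 SE, edgeR adjusted p = 0.0446 in the direct comparison).

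*Pkm*, which encodes the pyruvate kinase of most tissues, had 3593, 3268, 5085 and 3334 CPM in the wildtype libraries, 3307, 4666 and 4049.6 CPM in the Kat5 ko clones and 3856, 5028 and 2155 CPM in the Ep400 ko clones. Groups overlapped for *Pkm* in both comparisons (log2-fold change 0.04 ± 0.20 SE, edgeR adjusted p = 0.93 with all clones, and 0.16, edgeR adjusted p = 0.605 without Kat5/1 for Kat5, and log2-fold change −0.06 ± 0.30 SE, edgeR adjusted p = 0.917 for Ep400). Clone Ep400/3 was the lowest and clone Ep400/2 exceeded 3 of the 4 wildtype libraries, and the 95% interval of the log2-fold change for Ep400 was −0.65 to 0.54.

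Lactate dehydrogenase is encoded mainly by *Ldha* and *Ldhb*. *Ldha* (ENSMUSG00000063229, chr7:46841475-46855627), whose product favors the formation of lactate, had 1301, 1602, 1228 and 1286 CPM in the wildtype libraries, 1479, 1697 and 2097 CPM in the Kat5 ko clones and 823, 703 and 434 CPM in the Ep400 ko clones. It fell to 48.2% of the wildtype mean in Ep400 ko clones (log2-fold change −1.05 ± 0.24 SE, edgeR adjusted p = 0.0233), whereas clones Kat5/2 and Kat5/3 exceeded all wildtype libraries (log2-fold change 0.34 ± 0.16 SE, edgeR adjusted p = 0.25 with all clones, and 0.45, edgeR adjusted p = 0.0694 without Kat5/1). The call for Ep400 was lost without WT/1, WT/2 or WT/4 (log2-fold changes −1.08 to −0.96, edgeR adjusted p 0.0595 to 0.0621). *Ldhb*, the heart type gene, ranged from 4.58 to 50.3 CPM. Its lowest value was in clone Kat5/2 and its groups overlapped (log2-fold changes of −0.05 and −0.08 with edgeR adjusted p = 0.971 and 0.908). Without Kat5/1, the former was −0.77, edgeR adjusted p = 0.465.

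Bifunctional enzymes encoded by the Pfkfb genes set the level of fructose-2,6-bisphosphate, the main activator of phosphofructokinase. None of the 3 genes was called by edgeR in either knockout against wildtype. Without adjustment, 1 had a p of at most 0.05 for Kat5 and 2 for Ep400, and DESeq2 called 1 gene in each, *Pfkfb3* for Kat5 and *Pfkfb2* for Ep400. *Pfkfb3*, whose product has the highest kinase activity of the family, had 1.6, 2.6, 1.04 and 1.9 CPM in the wildtype libraries, 3.28, 5.8 and 5.58 CPM in the Kat5 ko clones and 2.63, 3.56 and 3.68 CPM in the Ep400 ko clones. It lay above the wildtype range in all clones of both knockouts, at low levels (log2-fold change 1.42 ± 0.38 SE, edgeR adjusted p = 0.096 for Kat5, and log2-fold change 0.88 ± 0.37 SE, edgeR adjusted p = 0.142 for Ep400). Without clone Kat5/1, the log2-fold change for Kat5 was 1.64, edgeR adjusted p = 0.027. *Pfkfb4*, the family member with the highest level per length in wildtype cells, had 11.2, 6.94, 6.71 and 8.75 CPM in the wildtype libraries, 7.5, 4.75 and 6.39 CPM in the Kat5 ko clones and 11.6, 9.84 and 10.4 CPM in the Ep400 ko clones (log2-fold change 0.34 ± 0.24 SE, edgeR adjusted p = 0.365 for Ep400). *Pfkfb2* ranged from 3.27 to 14.5 CPM and was higher in 2 of the 3 Ep400 ko clones than in all wildtype libraries (log2-fold change 1.04 ± 0.38 SE, edgeR adjusted p = 0.0994).

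Pyruvate dehydrogenase kinases inactivate the enzyme complex that feeds pyruvate into the citric acid cycle. *Pdk4* (ENSMUSG00000019577, chr6:5483351-5496309), which is known to respond to starvation and lipid fuels, had 38.7, 8.5, 15.5 and 38.9 CPM in the wildtype libraries, 11.4, 0.989 and 21 CPM in the Kat5 ko clones and 33, 286 and 279 CPM in the Ep400 ko clones. Clones Ep400/2 and Ep400/3 exceeded all other libraries, whereas clone Ep400/1 remained within the wildtype range (log2-fold change 2.97 ± 0.75 SE, edgeR adjusted p = 0.0342). The call was lost without WT/1, WT/2, WT/3, WT/4, Ep400/2 or Ep400/3 (log2-fold changes 2.59 to 3.25, edgeR adjusted p 0.0667 to 0.0812) and in the fit of all 10 libraries. *Pdk2* (ENSMUSG00000038967, chr11:95026258-95041354), a widely expressed family member, had 5.68, 2.75, 5.48 and 4.77 CPM in the wildtype libraries, 3.22, 0.33 and 1.06 CPM in the Kat5 ko clones and 10.1, 12.9 and 32.1 CPM in the Ep400 ko clones. All Ep400 ko clones lay above and clones Kat5/2 and Kat5/3 below the wildtype range (log2-fold change 1.97 ± 0.43 SE, edgeR adjusted p = 0.0214 for Ep400). For Kat5 it was called as lower only without clone Kat5/1 (log2-fold change −1.62 ± 0.68 SE, edgeR adjusted p = 0.21 with all clones, and −2.76, edgeR adjusted p = 0.0199 without Kat5/1). The rise for Ep400 was not called without WT/1, WT/2 or WT/4 (log2-fold changes 1.79 to 2.08, edgeR adjusted p 0.053 to 0.0655), nor in the fit of all 10 libraries, and was smaller without Ep400/3 (1.30, edgeR adjusted p = 0.0406).

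*Pdk3*, the kinase gene with the highest level per length in wildtype cells, had 26.4, 34.6, 36.8 and 28.8 CPM in the wildtype libraries, 27, 29.7 and 38 CPM in the Kat5 ko clones and 31, 17.3 and 20.3 CPM in the Ep400 ko clones (log2-fold change −0.47 ± 0.23 SE, edgeR adjusted p = 0.197 for Ep400). *Pdk1*, a known target of hypoxia signaling, ranged from 34 to 93.1 CPM with its lowest value in clone Ep400/1 (log2-fold change −0.67 ± 0.24 SE, edgeR adjusted p = 0.101). Neither was called in a knockout against wildtype with all libraries. For Ep400, *Pdk1* was called as lower without WT/3 (−0.83, edgeR adjusted p = 0.0417) and *Pdk3* without Ep400/1 (−0.75, edgeR adjusted p = 0.0472).

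*Ak4* (ENSMUSG00000028527, chr4:101419277-101466995), the gene of a mitochondrial adenylate kinase, had 14.5, 39.7, 4.23 and 15.7 CPM in the wildtype libraries, 10.6, 20.4 and 28.5 CPM in the Kat5 ko clones and 1.29, 0.594 and 0.647 CPM in the Ep400 ko clones. This was the strongest decrease of all members in Ep400 ko clones, to 4.55% of the wildtype mean (log2-fold change −4.44 ± 0.77 SE, edgeR adjusted p = 0.00992). The 4 wildtype libraries themselves differed widely, with WT/3 the lowest and WT/2 the highest, and Kat5 ko clones lay within their range (log2-fold change 0.07 ± 0.64 SE, edgeR adjusted p = 0.962 with all clones, and 0.37, edgeR adjusted p = 0.734 without Kat5/1). The decrease for Ep400 remained called in each fit with 1 library left out, at log2-fold changes of −4.89 to −3.76, the smallest without WT/2.

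Phosphoglucomutase links glycogen and glucose-1-phosphate to glycolysis. The deposited symbols *Pgm1* and *Pgm2* correspond by position to the RefSeq symbols Pgm2 and Pgm1, and the deposited ones are used here. *Pgm2* (ENSMUSG00000025791, chr4:99929414-99987294) had 57.3, 86.9, 40.8 and 55.2 CPM in the wildtype libraries, 41.8, 31.3 and 38.8 CPM in the Kat5 ko clones and 26.4, 22.7 and 22.7 CPM in the Ep400 ko clones and fell in Ep400 ko clones (log2-fold change −1.33 ± 0.25 SE, edgeR adjusted p = 0.0128). Kat5 ko clones lay at or below the lower end of the wildtype range without being called (log2-fold change −0.71 ± 0.25 SE, edgeR adjusted p = 0.156 with all clones, and −0.81, edgeR adjusted p = 0.0885 without Kat5/1). *Pgm1* had 54.1, 60.4, 62.6 and 54.8 CPM in the wildtype libraries, 43, 68.5 and 62 CPM in the Kat5 ko clones and 49.3, 69.5 and 45.3 CPM in the Ep400 ko clones, and its groups overlapped (log2-fold change −0.09 ± 0.17 SE, edgeR adjusted p = 0.763 for Ep400).

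Of the 7 genes of the pentose phosphate pathway, 1 was called in Ep400 ko clones, that of the entry enzyme. This share of 14.3% was near the 13.9% of all genes called. *G6pdx* (ENSMUSG00000031400, chrX:74409483-74429194), which encodes the rate-limiting glucose-6-phosphate dehydrogenase, had 236, 224, 294 and 245 CPM in the wildtype libraries, 233, 276 and 294 CPM in the Kat5 ko clones and 135, 156 and 107 CPM in the Ep400 ko clones. It fell in Ep400 ko clones to 53.2% of the wildtype mean (log2-fold change −0.91 ± 0.17 SE, edgeR adjusted p = 0.0136), and stayed called with any single library left out. Kat5 ko clones lay within the wildtype range (log2-fold change 0.07 ± 0.14 SE, edgeR adjusted p = 0.817 with all clones, and 0.16, edgeR adjusted p = 0.447 without Kat5/1).

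The genes of the following oxidative steps were not called. *Pgls*, the lactonase gene, had 112, 114, 120.4 and 60.3 CPM in the wildtype libraries, 117, 83.9 and 59 CPM in the Kat5 ko clones and 81.8, 113 and 66.6 CPM in the Ep400 ko clones (log2-fold change −0.23 ± 0.27 SE, edgeR adjusted p = 0.597 for Ep400). *Pgd*, the gene of 6-phosphogluconate dehydrogenase, which makes the second NADPH, had 219, 176, 198 and 205 CPM in the wildtype libraries, 219.9, 190.4 and 218 CPM in the Kat5 ko clones and 278, 225 and 202 CPM in the Ep400 ko clones (log2-fold change 0.23 ± 0.15 SE, edgeR adjusted p = 0.32 for Ep400). For *Pgd*, 2 of the 3 Ep400 ko clones were higher than all wildtype libraries.

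In the non-oxidative branch, which interconverts pentose phosphates and glycolytic intermediates, each knockout overlapped with wildtype for all 4 genes. *Rpia*, the ribose-5-phosphate isomerase gene, had 32.7, 31.4, 18.4 and 28.4 CPM in the wildtype libraries, 28.7, 36.9 and 23.7 CPM in the Kat5 ko clones and 30.4, 34.2 and 30.8 CPM in the Ep400 ko clones. *Rpe*, the epimerase gene, had 36.7, 48.5, 37.5 and 43 CPM in the wildtype libraries, 41.1, 53 and 58 CPM in the Kat5 ko clones and 39, 23.6 and 36.9 CPM in the Ep400 ko clones. *Tkt*, the transketolase gene, had 299, 304, 231 and 253 CPM in the wildtype libraries, 326, 232 and 179.7 CPM in the Kat5 ko clones and 307, 291 and 193 CPM in the Ep400 ko clones. The log2-fold changes for Ep400 were 0.20 for *Rpia*, −0.32 for *Rpe* and −0.04 for *Tkt*, with edgeR adjusted p = 0.541, 0.303 and 0.894. *Taldo1*, the transaldolase gene, had 184, 193, 172 and 147 CPM in the wildtype libraries, 174, 123 and 135 CPM in the Kat5 ko clones and 183, 160.0 and 117 CPM in the Ep400 ko clones (log2-fold change −0.19 ± 0.18 SE, edgeR adjusted p = 0.511 for Ep400). With all Kat5 ko clones, none of the 7 genes was called by edgeR or DESeq2, and 0 had an unadjusted p of at most 0.05 (lowest edgeR adjusted p 0.315). Without Kat5/1, none was called by edgeR either, and the lowest edgeR adjusted p was 0.0578 for *Taldo1*, followed by 0.11 for *Rpe* and 0.111 for *Tkt*. Log2-fold changes with and without Kat5/1 were −0.30 and −0.46 for *Taldo1*, 0.26 and 0.39 for *Rpe*, and −0.17 and −0.43 for *Tkt*.

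Levels of isozymes were next compared per length, as CPM per kilobase of annotated exons. In wildtype cells, *Eno1* had 257 ± 20.9 CPM per kilobase (SD, n = 4), *Eno3* 59.1 ± 10.9 and *Eno2* 7.91 ± 4.6. In Ep400 ko clones, *Eno2* reached 13.1 ± 4.8 CPM per kilobase (SD, n = 3) and exceeded *Eno3* with 7.17 ± 3.77, so that their order was exchanged. *Eno1* stayed the highest of the 3, with 103 ± 36.1 CPM per kilobase.

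The ratio of *Eno2* to *Eno1* per length was 0.0264, 0.0157, 0.0622 and 0.023 in wildtype libraries, 0.0189, 0.00618 and 0.00869 in Kat5 ko clones and 0.0578, 0.168 and 0.209 in Ep400 ko clones. Its difference between Ep400 ko and wildtype was 2.19 on the log2 scale, with clone Ep400/1 inside the wildtype range (two-sided exact permutation test, p = 0.114).

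The ratio of *Hk2* to *Hk1* per length was 0.385, 0.654, 0.456 and 0.403 in wildtype libraries, 0.413, 3.03 and 1.47 in Kat5 ko clones and 0.187, 0.156 and 0.131 in Ep400 ko clones. Here, all Ep400 ko clones lay below wildtype (log2 difference −1.57, two-sided exact permutation p = 0.0571, which is the smallest this design of 4 against 3 libraries allows). In clones Kat5/2 and Kat5/3, *Hk2* exceeded *Hk1* per length, which occurred in no other library.

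Of 7 isozyme ratios that could be formed, 2 separated Ep400 ko from wildtype without overlap, namely *Hk2* to *Hk1* and *Pfkp* to *Pfkl*. For the latter, the ratio was higher in Ep400 ko clones (log2 difference 0.96, two-sided exact permutation p = 0.0571). In Kat5 ko clones, *Aldoc* to *Aldoa* (log2 difference −3.21) and *Slc2a3* to *Slc2a1* (−2.76) did not overlap with wildtype, each with a two-sided exact permutation p of 0.0571. The latter difference was −1.42 without clone Kat5/1. After Benjamini-Hochberg adjustment over the 7 ratios, the lowest exact p was 0.16 for Ep400 and 0.2 for Kat5, so that no ratio could pass a threshold of 0.05.

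**Figure D4:**
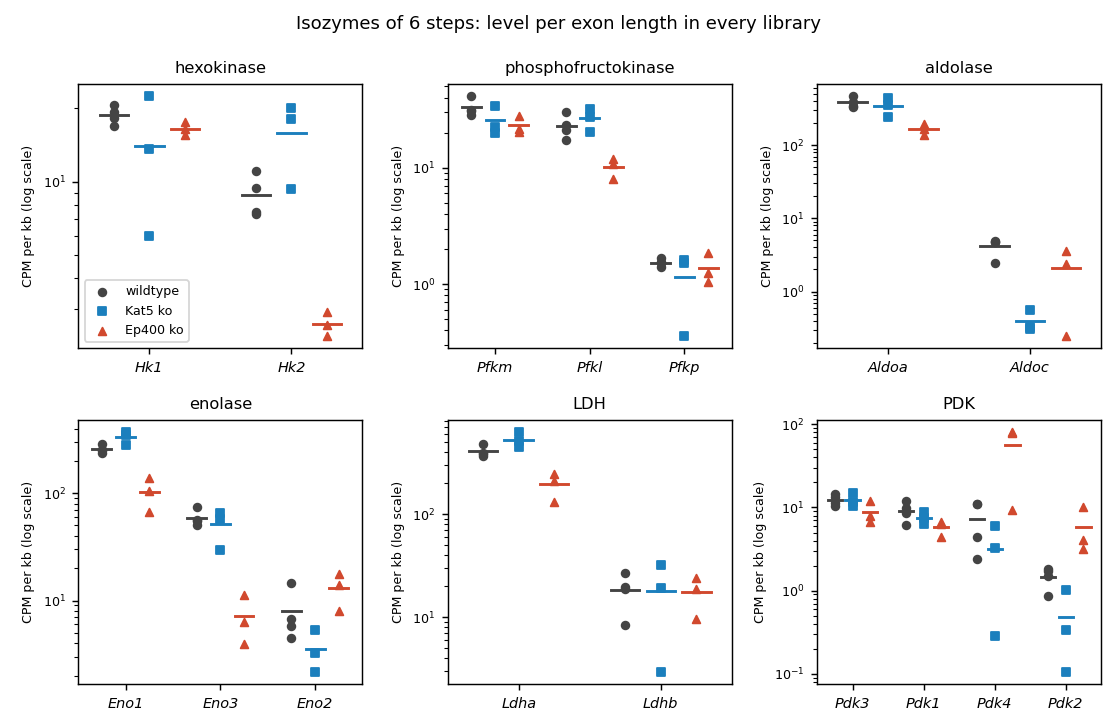
Level per exon length, in CPM per kilobase on a log scale, of the isozymes of 6 steps in each library of the 3 groups, with the group mean as a short line. In Ep400 ko clones *Hk2* is lower and *Hk1* is not, *Eno1* and *Eno3* are lower and *Eno2* is not, and *Pdk4* and *Pdk2* are higher in some or all clones.

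Since both knockouts were compared with the same 4 wildtype libraries, the difference between them was tested directly. Of 38 members, 8 were lower and 1 was higher in Ep400 ko than in Kat5 ko clones, while 7.32% of the 13587 genes tested were called, 2.97% as lower and 4.34% as higher. All 9 were DEGs, compared with 5.5% of all genes (2.38% lower and 3.12% higher). The lower genes were *Hk2* (log2-fold change −2.63, edgeR adjusted p = 0.0197), *Ak4* (−4.56, 0.0197), *Eno3* (−2.85, 0.0286), *Pfkl* (−1.40, 0.0314), *Eno1* (−1.71, 0.0317), *Pgk1* (−1.52, 0.0393), *G6pdx* (−1.03, 0.0393) and *Ldha* (−1.45, 0.0399), with the same quantities in each bracket. The higher gene was *Eno2*. In 15 members, all Ep400 ko clones lay below all Kat5 ko clones, and in 5 members above, which held for 18% and 20.5% of all genes. Members had a median log2-fold change of −0.28, compared with 0.01 for all genes.

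This direct comparison depended on single clones. The number of members called by edgeR was 11, 2 and 0 without clone Kat5/1, Kat5/2 and Kat5/3, and 6, 0 and 0 without clone Ep400/1, Ep400/2 and Ep400/3. Calls over all genes moved the same way, from 994 with all clones to 2537, 81 and 5 and to 368, 34 and 4. In each of the 3 fits without a call, 18 members had an unadjusted p of at most 0.05, and DESeq2 called 19 members with all clones. Without Kat5/3, Ep400/2 and Ep400/3, such an edgeR p was found in 3038 of 14061, 3547 of 14017 and 3299 of 13777 genes. DESeq2 called 3067 of all 13587 genes. For *Hk2* the log2-fold change stayed between −2.90 and −2.41, and for *Ak4* between −5.02 and −4.21, with 1 clone left out at a time or another setting.

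Clones of the same knockout also differed among themselves. Among the 14 members that fell in Ep400 ko clones, clone Ep400/3 had the lowest level in 10 and clone Ep400/2 in 4, and clone Ep400/1 the highest in 11. Over all 38 members tested, the median log2 difference from the wildtype mean was −0.27, −0.66 and −0.56 in clones Ep400/1, Ep400/2 and Ep400/3, compared with −0.12 to 0.16 in wildtype libraries. Over the 14 genes, which were chosen as lower in these clones, it was −0.95, −1.26 and −1.45. In wildtype cells, library WT/2 had the highest level in 11 of these 14 genes and WT/3 the lowest in 11.

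Some members have near-identical copies in the genome, and reads from these may be assigned to either. In GENCODE M21 transcripts, 51.7% of the 100-base windows of *Pgk1*, 33.9% of those of *Pgam1*, 20.9% of those of *Gapdh* and 20.4% of those of *Eno1* occurred in other genes as well. Among the copies of these 4 genes, *Eno1b* had the most counts, with 16.8% of the *Eno1* level in wildtype libraries. Summed over *Eno1* and *Eno1b*, Ep400 ko clones had 40% of the wildtype mean. For the other 3 genes, the copy with the most counts had at most 0.338% of the member's counts.

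Other genes around glycolysis were examined through 6 further lists. Their counts stand beside 13.9% of all genes called for Ep400 (5.76% lower and 8.09% higher) and 0.499% for Kat5. In pyruvate metabolism and gluconeogenesis, 13 of 17 genes could be tested, of which 1 fell and 2 rose in Ep400 ko clones and 1 fell in Kat5 ko clones. *Pck2*, which encodes the mitochondrial enzyme that makes phosphoenolpyruvate, had 200.2, 129.7, 225 and 189.5 CPM in the wildtype libraries, 42.9, 38.5 and 52 CPM in the Kat5 ko clones and 59.4, 30.5 and 52.9 CPM in the Ep400 ko clones. It was the only gene of these lists that fell in both knockouts (log2-fold change −2.10 ± 0.22 SE, edgeR adjusted p = 0.0172 with all clones, and −2.08, edgeR adjusted p = 0.00513 without Kat5/1 for Kat5, and log2-fold change −1.97 ± 0.28 SE, edgeR adjusted p = 0.00509 for Ep400), and all clones lay far below wildtype. *Pcx*, the pyruvate carboxylase gene, and *Pdp1*, whose phosphatase product counteracts the Pdk kinases, rose in Ep400 ko clones (1.08 and 0.67 on the log2 scale, edgeR adjusted p = 0.0418 and 0.0209).

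Among further glycolytic and pentose phosphate isozymes, 10 of 28 genes could be tested and none was called by edgeR in either knockout. Without adjustment, 1 gene had a p of at most 0.05 for Kat5 and 2 for Ep400, and DESeq2 called 0 and 1. In glycogen and nucleotide sugar metabolism, 3 of 16 tested genes fell in Ep400 ko clones (18.8%, compared with 5.76% of all genes). These were *Gfpt1*, which opens the hexosamine pathway (−0.85, edgeR adjusted p = 0.0131), the glycogen synthase gene *Gys1* (−0.74, edgeR adjusted p = 0.0109) and the glycogen phosphorylase gene *Pygb* (−0.62, edgeR adjusted p = 0.0461). In Kat5 ko clones, none of the 16 was called by edgeR, 3 had an unadjusted p of at most 0.05 and DESeq2 called 2.

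In the list of glycerol phosphate, fructose and polyol metabolism, which includes galactose and mannose enzymes, 2 of 13 tested genes fell and 2 rose in Ep400 ko clones (30.8% called, compared with 13.9% of all genes). The galactokinase gene *Galk1* (−1.20, edgeR adjusted p = 0.00895) and the phosphomannomutase gene *Pmm1* (−1.27, edgeR adjusted p = 0.00677) fell. The galactose mutarotase gene *Galm* (1.61, edgeR adjusted p = 0.00455) and *Pmm2* (0.69, edgeR adjusted p = 0.0368) rose.

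Of 14 tested regulators of glycolytic genes, 1 fell and 1 rose in Ep400 ko clones (14.3%, near the 13.9% of all genes), and none was called for Kat5 by edgeR (2 at an unadjusted p of at most 0.05, and 1 by DESeq2). *Hif1a*, the gene of the oxygen-regulated subunit of hypoxia-inducible factor 1, had 214, 237, 279 and 248 CPM in the wildtype libraries, 124, 232 and 243 CPM in the Kat5 ko clones and 132, 156 and 137 CPM in the Ep400 ko clones. It fell in Ep400 ko clones (log2-fold change −0.79 ± 0.14 SE, edgeR adjusted p = 0.0119), all of which lay below the wildtype range. *Hif1an*, whose product inhibits this factor, had 48.2, 50.8, 51.7 and 55.3 CPM in the wildtype libraries, 48.3, 61.6 and 45.7 CPM in the Kat5 ko clones and 82.2, 71.6 and 83.9 CPM in the Ep400 ko clones and rose (log2-fold change 0.62 ± 0.12 SE, edgeR adjusted p = 0.0152).

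Among 14 tested genes of the hypoxia response outside glycolysis, 5 fell in Ep400 ko clones and none rose (35.7% lower, compared with 5.76% of all genes). The median change of this list was −0.70 on the log2 scale. They were *Car12* (−2.68, edgeR adjusted p = 0.00359), *Ddit4* (−1.99, 0.0144), *P4ha2* (−1.51, 0.00329), *P4ha1* (−1.05, 0.0365) and *Ero1l* (−0.77, 0.0119), given in the same order of quantities. In Kat5 ko clones, none of the 14 was called by edgeR, while 5 had an unadjusted p of at most 0.05, DESeq2 called 4, and the median log2-fold change was −0.48.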

How the data were processed

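Poly-A RNA-seq libraries from 4 wildtype samples and 3 clones per knockout had been sequenced on the NovaSeq platform and mapped to mm10. The submitters' processing notes name bcl2fastq 2.20, STAR 2.7.3, DESeq2 1.36.0 and R 4.2.1. The program and strand setting used for counting are not given in the sources used here. The deposited values used here are raw counts, which the authors made as whole read counts per gene. The deposited normalized tables were not used.

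Samples were grouped by title. After removal of low genes by filterByExpr and TMM scaling, each comparison was tested in edgeR 4.0.16 (R 4.3.3) by the quasi-likelihood test with Benjamini-Hochberg adjustment over all genes of a comparison, in a fit of the 2 groups compared. Between libraries of a group, counts differed beyond Poisson error, with 26.1 to 239 times the chi-square that sampling alone would give. CPM were computed from the counts. Median fold changes were described without a test. Isozyme ratios were tested by exact permutation (SciPy 1.17.1). Positions and exon lengths came from GENCODE M21 (GRCm38, equal to mm10), and promoter sequences from RefSeq for GRCm38.p6.

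The members and gene lists were chosen with earlier results of these data known. All members may be named. Values in every library are given for members called in any comparison, for the 5 with the largest change per knockout and for the isozyme with the highest level per length of a step. Of the other lists, called genes are named, at most 5 per list. The Kat5 result of the list of glycerol phosphate, fructose and polyol metabolism is not reported here.

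In data simulated on 13227 genes of the Kat5 comparison, edgeR recovered 28 of 100 genes changed by 1 and 86 of 100 changed by 2 on the log2 scale, with 5 false calls. On 13663 genes of the Ep400 comparison it recovered 30 and 89 of 100, with 6 false calls. It made 0 calls without change. Alternatives were DESeq2 1.42.0, size factors by relative log expression, library size alone, no filter, all libraries in 1 fit, a replicate block, chromosome offsets, the rule for DEGs, and each library left out. Leaving out libraries for the isozyme ratios was chosen after seeing the data.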

Additional observations from a re-analysis of the deposited data

Results flagged for a closer look

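In 9 members, the direct test found a difference between Ep400 ko and Kat5 ko clones. The log2-fold changes of Ep400 ko against Kat5 ko were −4.56 for *Ak4*, −2.85 for *Eno3*, −2.63 for *Hk2*, −1.71 for *Eno1*, −1.52 for *Pgk1*, −1.45 for *Ldha*, −1.40 for *Pfkl*, −1.03 for *G6pdx* and 1.86 for *Eno2*. For *Hk2*, *Eno1*, *Pgk1*, *Ldha*, *Pfkl*, *Ak4* and *G6pdx*, the Kat5 ko mean was above and the Ep400 ko mean below the wildtype mean. For *Eno2* this order was inverse, and for *Eno3* both means were below wildtype.

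A single wildtype library lay far from the other wildtype libraries in 2 of the 38 members tested by Dixon's criterion, of which chance flags about 1 in 20 groups. *Aldoc* had 7.92 CPM in library WT/2, compared with 15.4 to 16.0 CPM in the other 3 wildtype libraries. *Pgls* had 60.3 CPM in library WT/4, compared with 112 to 120.4 CPM.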

How the results depend on the processing

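The 16 members called in Ep400 ko clones kept their direction under each alternative run, and 10 of them stayed called with any single library left out. The number called was 12 by the rule for DEGs, 19 in DESeq2 and 14 with all libraries in 1 fit, and 10 to 17 with 1 library left out. The lowest count, 10, resulted without WT/1 or without WT/4. For this comparison, edgeR called 1917 of all genes, of which 895 were DEGs, DESeq2 called 3131 and the fit of all libraries 1273. With 1 library left out, 826 to 2016 of all genes were called. Between Ep400 ko and Kat5 ko clones, 9 members were called by edgeR, 19 by DESeq2 and 18 with all libraries in 1 fit, and 0 to 11 with 1 clone left out. Calls over all genes were 994, 3067 and 3539, and 4 to 2537 with 1 clone left out. For Kat5 against wildtype, 1 member was called by edgeR, 4 by DESeq2 and 0 with all libraries in 1 fit, and 0 to 7 with 1 library left out, with the highest count without Kat5/1. Here, calls over all genes were 67, 1489 and 26, and 1 to 2651 with 1 library left out.

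The labels name no pairing of libraries between groups. Correlations of residuals by replicate number were −0.11 to 0.23, which does not exclude a pairing. The fit with the replicate number as a block is given here only. With the replicate block, 2 members were called for Ep400 (*Hk2* and *Eno3*), 0 for Kat5 and 3 between the knockouts (*Ak4*, *Hk2* and *Pfkl*). Calls over all genes were then 170, 0 and 213, compared with 1917, 67 and 994 without the block.

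The median log2-fold change between the knockouts was −0.50 to −0.22 with 1 clone left out. Small changes that were not called turned in sign in some fits. For Kat5, *Gapdh* was at −0.01 with library size alone. With 1 library left out, log2-fold changes for Kat5 were −0.045 to 0.225 for *Gapdh*, −0.15 to 0.17 for *Gpi1*, −0.42 to 0.013 for *Aldoa*, −0.46 to 0.033 for *Eno3* and −0.27 to 0.77 for *Ak4*. Between the knockouts, *Slc2a3* ranged from −0.14 to 0.93. The causes were not tested. Isozyme ratios were set against the spread between replicates (1 SD on the log2 scale) with any 1 library left out. In groups this small, leaving out 1 library can never move a difference by that much, so this criterion decides nothing. With 1 library left out, 2 differences turned in sign. *Aldoc* to *Aldoa* for Ep400 went from −0.42 to 0.90 without Ep400/1, and *Ldhb* to *Ldha* for Kat5 from −0.86 to 0.16 without Kat5/2. *Hk2* to *Hk1* for Kat5 was between 0.75 and 2.19, and *Slc2a3* to *Slc2a1* for Kat5 between −3.68 and −1.42. Chromosome offsets took out, in each library, the median log2 deviation of the genes of a chromosome. Relative to the wildtype mean, this median was −0.16, −0.18 and −0.19 in the Ep400 ko clones for chromosome 11 (*Eno3*, *Pdk2* and *Aldoc*). For chromosome 19 (*Pgam1*) it was 0.27, 0.23 and 0.22, and the causes of such shifts were not tested. With chromosome offsets, 17 members were called for Ep400 against wildtype. *Pgk1* and *G6pdx* were then not called between the knockouts (edgeR adjusted p = 0.0525 and 0.0579). With 3 clones per knockout, a gene that was not called may still have changed.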

Other observations

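Markers of the cranial neural crest and of other cell types also moved with the Ep400 knockout. Of 11 neural crest markers tested, 3 rose and 1 fell in Ep400 ko clones (36.4% called). In this comparison, 13.9% of all genes were called, 8.09% as higher and 5.76% as lower. *Pdgfra*, the gene of a growth factor receptor of neural crest mesenchyme, had 119, 105, 136 and 132 CPM in the wildtype libraries, 130.1, 56.3 and 48 CPM in the Kat5 ko clones and 596, 519.8 and 648 CPM in the Ep400 ko clones (log2-fold change 2.25 ± 0.15 SE, edgeR adjusted p = 0.000966). *Tfap2a* (1.37, edgeR adjusted p = 0.0223) and *Snai2* (0.85, edgeR adjusted p = 0.0451), 2 transcription factor genes of neural crest development, rose, and *Nt5e* fell (−1.58, edgeR adjusted p = 0.0335). The summed level of the 11 markers was 819 to 988 CPM in wildtype libraries, 935 to 1220 CPM in Kat5 ko clones and 1570 to 1610 CPM in Ep400 ko clones. Much of the higher sum in Ep400 ko clones came from *Pdgfra*, and 7 of the 11 markers were not called there. Whether the state of the cells plays a part in the lower glycolytic transcripts was not tested.

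Of 5 neuronal markers, 3 could be tested, and *Tubb3* and *Stmn2* rose in Ep400 ko clones (1.83 and 2.60 on the log2 scale, edgeR adjusted p = 0.0375 and 0.0481). Over all genes, 8.09% were called as higher. The summed level of the neuronal list stayed low, at 3.13 to 6.07 CPM in wildtype libraries and 7.54 to 28.2 CPM in Ep400 ko clones. Of 6 markers of bone and cartilage, 2 could be tested and 1 fell in Ep400 ko clones, while 5.76% of all genes were called as lower. *Acan*, the gene of the cartilage proteoglycan aggrecan, had 22.2, 20.8, 5.56 and 24.5 CPM in the wildtype libraries, 3.36, 4.81 and 56 CPM in the Kat5 ko clones and 0.188, 0.0312 and 0 CPM in the Ep400 ko clones and fell in Ep400 ko clones (log2-fold change −7.83 ± 0.94 SE, edgeR adjusted p = 0.00318). Of 5 epithelial markers, 3 could be tested and 2 fell in Ep400 ko clones. These were *Krt8* and *Krt18*, keratin genes of simple epithelia, which fell from at most 2.12 and 2.82 CPM in wildtype libraries. In Kat5 ko clones, all 3 tested markers lay below the wildtype range, as did 10.2% of all genes. None of them was called by edgeR there, and DESeq2 called 1. The summed level of the epithelial list was 1.65 to 4.72 CPM in wildtype libraries, 0.375 to 0.827 CPM in Kat5 ko clones and 0.563 to 0.971 CPM in Ep400 ko clones. Summed levels did not exceed 7.07 CPM for 6 glial markers and 7.81 CPM for 4 macrophage markers in any library.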
